A study of Homo sapiens with 6 samples.

Results

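Open chromatin of LNCaP prostate cancer cells was compared before and after 3 hours of dihydrotestosterone (DHT, the most potent natural androgen). LNCaP is an established cell line, derived from a human prostate cancer, whose growth responds to androgen. ATAC-seq, in which a transposase cuts accessible DNA and so marks it for sequencing, was run on cells that carried a control hairpin (shCON). One group was kept for 72 hours under CDT, the hormone-deficient condition of the study, and the other had 72 hours of CDT followed by 3 hours of DHT. Each group had 2 libraries, made from 75000 cells per reaction, and the authors combined both libraries of a group into 1 list of accessible sites (peaks) on the human genome build hg19. Another list, of RB-depleted (shRB) cells without hormone, also from 2 libraries, serves here as context only. The control list without hormone (shCON CDT) held 12096 peaks and the DHT list (shCON DHT) 12896, together 24992 of the 39780 peaks in all 3 lists. The dose of DHT, and whether the cells without hormone received its solvent, are not stated in the labels. The labels name 1 control hairpin.

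Androgens act through the androgen receptor, a nuclear receptor that stays largely inactive in the cytoplasm until it binds hormone. The bound receptor enters the nucleus and binds short palindromic DNA elements, mostly at enhancers away from gene starts, where the pioneer factor FOXA1 and the homeobox factor HOXB13 often hold chromatin open beforehand. A short androgen pulse after deprivation is a standard way to look at the early response in prostate cancer cells. The comparison thus asked which accessible sites were listed with and without the pulse, how they ranked, how wide they were and where they lay.

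Because each list pools its replicates, there is 1 value per condition, so that no difference could be set against replicate error and none was tested. Intervals in parentheses are exact 95% binomial intervals for shares and order-statistic 95% intervals for medians. They treat neighbouring peaks as independent and cover counting error only. The lists give positions and a score from 413 to a cap of 1000, with no read counts, so depth is unknown and a peak missing from a list is not a measure of closed chromatin. Sites are given by position, without gene names or sequence, since no hg19 annotation or genome was used here. For the same reason the promoters of luminal prostate genes were not examined as a check of the cell line.

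Control cells with and without DHT shared most of their peaks, and each condition also had many of its own. A peak was called shared where it overlapped a peak of the other list by at least 1 bp. Joined by such overlaps, both lists formed 16636 sites, of which 7718 held a peak in both conditions, 4728 in DHT only and 4190 in CDT only. The peaks with no counterpart made up 36.7% of the DHT list (35.8 to 37.5) and 34.6% of the CDT list (33.8 to 35.5). The order turned with lists of equal length: with only the 12096 best-scoring DHT peaks kept, 66.3% of DHT peaks and 64.3% of CDT peaks were shared. The DHT list was 800 peaks longer. Of this surplus, 538 came from the larger number of unshared peaks, and 262 from shared sites that were cut into more pieces with DHT. Close neighbours bear on the first number too. With peaks under 500 bp apart joined, unshared peaks came down to 4109 in DHT and 3748 in CDT. The call of sharing rarely rested on a narrow touch: only 20 shared CDT peaks and 38 shared DHT peaks were met over fewer than 50 bp. On the other side of the threshold, 34 unshared CDT peaks and 39 unshared DHT peaks had a peak of the other list less than 50 bp away. The median shared DHT peak lay under CDT peaks for 95.9% of its length, while the median shared CDT peak lay under DHT peaks for 83.9%.

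In both conditions the share of unshared sites was lower the higher the score. Peaks below the cap were divided by score within their own list into 5 bands of about equal size, with tied scores kept together. In the lowest-scoring band, 76.8% of DHT peaks (74.8 to 78.7) and 77.2% of CDT peaks (75.1 to 79.2) had no counterpart. These shares came down to 51.0% for DHT and 52.02% for CDT in the middle band, and to 17.8% (16.1 to 19.6) and 18.1% (16.2 to 20.02) in the highest band. As deposited, the intervals of both directions overlapped in each of these 5 bands. They lay farthest apart in the band next to the lowest, with 69.5% for DHT (67.4 to 71.6) and 65.98% for CDT (63.6 to 68.3). In the lowest band they parted in opposite directions under other settings. With lists cut to one length it was 71.5% for DHT (69.3 to 73.6) and 78.4% for CDT (76.3 to 80.4), and in the top 50% of both lists, with bands drawn anew, 60.6% (56.5 to 64.5) and 49.8% (44.9 to 54.6). At the score cap, 2.76% of DHT peaks (2.24 to 3.36) and 4.55% of CDT peaks (3.92 to 5.25) were unshared, and these intervals did not overlap. The cap does not mark the same rank in both lists, since it held 27.0% of DHT peaks and 32.5% of CDT peaks. The lists differ in length, so equal bands do not hold equal numbers of peaks, and the score is the authors' own value whose scaling is not stated.

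**Figure D1:**
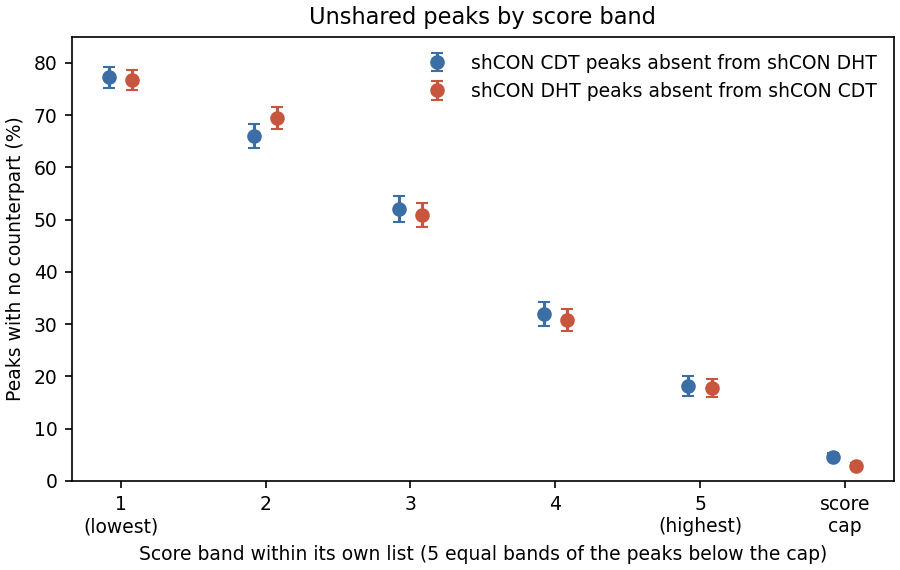
Share of peaks with no counterpart in the other control list (vertical axis, %) by score band within the peak's own list (horizontal axis: 5 bands of the peaks below the cap, then the cap itself). Points are shares of each pooled list and bars are exact 95% binomial intervals; both lists run from about 77% unshared in the lowest band to 2.76% and 4.55% at the cap.

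Unshared peaks were also narrower than shared peaks of the same rank in their list. In the lowest band, the median unshared DHT peak was 480 bp wide and the median shared one 716.5 bp. In CDT these medians were 601 and 893 bp. Peaks at the cap showed the same order, with 587 against 1003 bp in DHT and 767 against 1143.5 bp in CDT. A wider peak has more room to meet another, and the part of width in these overlaps was not tested. Unshared peaks accounted for 2.74 Mb of DHT sequence and 3.05 Mb of CDT sequence, which is 26.5% and 26.1% of each list by length.

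The highest-scoring unshared sites were spread over many chromosomes. By the rule used here, the 10 highest-scoring unshared peaks of each list were taken. With 96 unshared DHT peaks and 179 unshared CDT peaks tied at the cap, these were the widest of them, ordered by width. The 10 DHT peaks were 1138 to 1416 bp wide, and the 10 CDT peaks 1486 to 2155 bp. The sixth to the tenth in DHT lay at chr7:138665590-138666786, chr19:23456202-23457368, chr10:83633965-83635126, chr7:97910446-97911584, and chr7:121783502-121784639. Those on chromosome 10 and the last on chromosome 7 stood alone, with no other DHT peak within 500 kb, and were 259 kb and 161 kb from the nearest CDT peak. The sixth to the tenth in CDT lay at chr11:27492847-27494602, chr15:43212083-43213829, chr1:90286248-90287926, chr9:129566773-129568404, and chr10:14879585-14881070. Over all 10, the distance to the nearest peak of the other list ran from 0.214 to 259 kb in DHT and from 4.49 to 173 kb in CDT. The number of other CDT peaks within 500 kb of the 10 CDT peaks ran from 1 to 16, and that of other DHT peaks around the 10 DHT peaks from 0 to 12. All 20 of these peaks overlapped a peak of the RB-depleted cells, so each was listed in 1 other condition of the study. Their choice by width bears on this count. Unshared cap peaks present in the RB-depleted list had median widths of 608 bp in DHT and 831 bp in CDT, against 495 and 258 bp for those absent. Of all unshared cap peaks, 81.3% in DHT and 80.4% in CDT were present there.

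Presence in the RB-depleted cells followed rank as well. Among unshared DHT peaks, 15.9% of the lowest band (14.01 to 17.8) and 81.3% of those at the cap (72.0 to 88.5) were also in the RB-depleted list. Among unshared CDT peaks these shares were 22.7% (20.4 to 25.1) and 80.4% (73.9 to 86.0). The corresponding shares of shared peaks were higher in every band and ranged from 72.3% to 98.6% in DHT and from 70.2% to 99.1% in CDT. At the cap, 18 DHT peaks were found in no other list, with a median width of 495 bp. The 35 CDT peaks of this kind had a median width of 258 bp, 20 of them were under 400 bp, and 19 had a DHT peak within 1 kb. These comparisons share the control lists with the main one.

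DHT peaks were narrower than CDT peaks at the same sites. At 7119 sites with exactly 1 peak in each list, the median width was 947 bp with DHT and 1069 bp without. The median ratio of DHT to CDT width was 0.898 (0.890 to 0.905), and the DHT peak was the narrower one at 4674 sites (65.7%, 64.5 to 66.8), the wider one at 2426 and of equal width at 19. The ratio varied widely from site to site, with its central 80% between 0.577 and 1.32. Narrowing by 1.5-fold or more was seen at 17.3% of these sites, and widening by that much at 5.41%. Both edges lay inward by a like amount, 39 bp at the lower-coordinate edge and 36 bp at the higher one at the median. The DHT peak sat wholly inside the CDT peak at 2625 sites (36.9%), the reverse held at 1076 (15.1%), and the peaks were staggered at the others. Staggered DHT peaks were displaced about equally to higher (1749) and lower (1667) coordinates. The centres differed by a median of 95 bp.

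**Figure D2:**
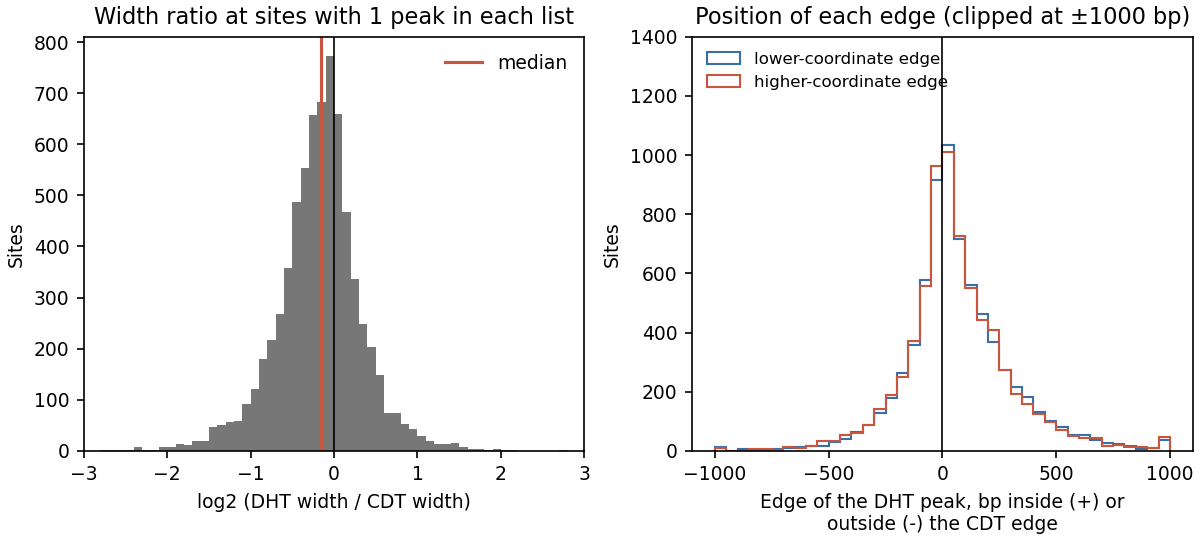
Left, number of sites (vertical axis) by log2 of the DHT to CDT peak width (horizontal axis) at the 7119 sites with 1 peak in each list; the red line is the median, which lies to the left of 0 (equal widths). Right, number of sites by the position of each edge of the DHT peak relative to the CDT edge in bp, positive where it lies inside; both edges have the same shape, with more sites on the positive side.

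Narrowing was seen at sites of high and of lower score alike. At the 2297 sites at the cap in both lists the median ratio was 0.898 (0.889 to 0.907), and at the 2920 sites below the cap in both it was 0.893 (0.878 to 0.908). It was 0.924 (0.899 to 0.939) at 1144 sites at the cap in CDT only and 0.886 (0.869 to 0.905) at 758 sites at the cap in DHT only. Sites were also divided into 5 bands by the geometric mean of both widths, which favours neither list. The share of sites with a narrower DHT peak went from 57.7% (55.1 to 60.3) among the smallest sites to 71.8% (69.4 to 74.2) among the widest. The median ratio did not fall steadily with width. From the smallest band to the widest it was 0.936 (0.914 to 0.956), 0.887, 0.906, 0.877 and 0.892 (0.885 to 0.906). Ratios were also less scattered among the widest sites than among the smallest, which bears on the share. The median ratio was below 1 on all 24 chromosomes, from 0.855 on chromosome 18 to 0.978 on chromosome 21. Only on chromosome 21 (0.905 to 1.05) and chromosome X (0.905 to 1.01) did the interval reach 1. Depth and peak caller, on which a width depends, are not known for these lists.

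The extremes show how different the outlines could be at sites of the highest rank. The site narrowed most, among those at the cap in both lists, lay at chr17:28705313-28706726 in CDT, where a peak of 1414 bp stood against 478 bp with DHT. There the DHT peak was near the middle of the CDT peak, its edges 428 and 508 bp inside. At the next site, chr5:170814095-170815883, 1789 bp stood against 611 bp, with 960 bp of the difference at the higher-coordinate end. The other sites of the 5 narrowed most were at chr3:39424716-39426149, chr19:50432294-50433431, and chr7:3339525-3341319. On chromosomes 3 and 19 nearly all of the difference was on the lower-coordinate side, 906 and 655 bp. At 4 of the 5 sites, all but the first, most of the difference was on 1 flank.

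The opposite pattern was found at fewer sites. The site widened most lay on chromosome 17, with a CDT peak of 627 bp from 4843091 to 4843717 and a DHT peak of 1349 bp from 4842832 to 4844180. Another, chr17:4045875-4046645, measured 771 bp in CDT and 1580 bp with DHT, with 729 bp of the difference at its higher-coordinate end. At chr19:9896438-9896960, 523 bp stood against 1109 bp. At chr10:38691628-38691936, 309 bp stood against 655 bp. At chr16:23160673-23161227, 555 bp stood against 1143 bp. These sites were chosen for their ratios, which are therefore a description.

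**Figure D3:**
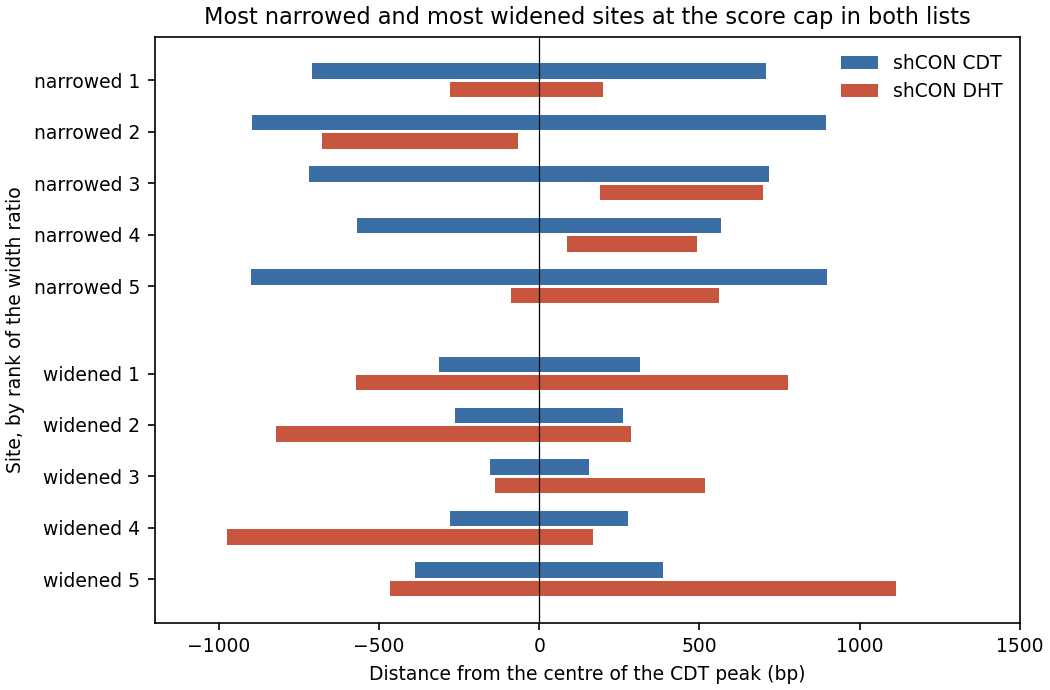
Outlines of the 5 sites with the lowest and the 5 with the highest ratio of DHT to CDT width, among sites with 1 peak in each list at the score cap in both. Bars span each peak in bp from the centre of the CDT peak (horizontal axis), CDT above DHT at each site; the narrowed sites go from 1138 to 1795 bp in CDT to 408 to 648 bp in DHT.

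Some sites were also listed in more pieces after DHT. Of 7906 shared CDT peaks, 433 (5.48%, 4.99 to 6.001) met 2 or more DHT peaks, and 16 of these met at least 3. In the other direction 187 of 8168 shared DHT peaks (2.29%, 1.98 to 2.64) met 2 or more CDT peaks. The CDT peaks met by several were wide, with a median of 1289 bp, and the gap between their DHT pieces had a median of 76 bp. In all, 1109 pairs of neighbouring DHT peaks were under 500 bp apart, against 678 pairs in CDT. When such neighbours were joined within each list, the DHT surplus of 800 peaks came down to 369. The shares of shared peaks were then 65.1% in DHT and 67.2% in CDT, against 63.3% and 65.4% as deposited.

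Sites listed only with DHT lay farther from the other list than sites listed only without it. The median unshared DHT peak was 63.2 kb (60.04 to 66.5) from the nearest CDT peak, and the median unshared CDT peak was 49.96 kb (47.3 to 52.7) from the nearest DHT peak. More than 500 kb separated 344 unshared DHT peaks (7.28%, 6.55 to 8.05) from any CDT peak, against 182 unshared CDT peaks (4.34%, 3.75 to 5.01) from any DHT peak. For distances over 1 Mb these numbers were 89 and 32. The list searched was shorter in the first direction, and when only the 12096 best-scoring DHT peaks were kept, as many as in CDT, the medians were 59.5 kb and 51.9 kb. Within their own list unshared peaks were spaced alike, with the nearest neighbour at a median of 39.9 kb in DHT and 38.8 kb in CDT.

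The gap between directions, in kb, was widest at the lowest scores. In the lowest score band, unshared DHT peaks were a median of 84.9 kb (78.5 to 94.6) from the other list and unshared CDT peaks 52.4 kb (48.5 to 57.2). In the next band these were 75.4 and 61.02 kb. From the middle band up the intervals overlapped, with 51.6 and 52.04 kb in the middle band and 36.1 and 30.2 kb in the highest. At the cap the medians were 43.6 kb (23.5 to 62.1) for 96 DHT peaks and 23.2 kb (15.8 to 33.2) for 179 CDT peaks, a larger ratio than in the lowest band, although these intervals overlapped too. Unshared peaks that were also absent from the RB-depleted cells lay farther away than those present there, at 77.0 kb (72.4 to 81.4) for 3297 DHT peaks and 56.9 kb (53.6 to 61.2) for 2642 CDT peaks. The peaks present there stood at 41.0 kb (37.7 to 45.9) and 40.1 kb (37.7 to 42.8). At the cap, 23 of 96 unshared DHT peaks (24.0%) and 40 of 179 unshared CDT peaks (22.3%) were within 1 kb of a peak of the other list, against 5.16% and 6.75% of all unshared peaks.

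**Figure D4:**
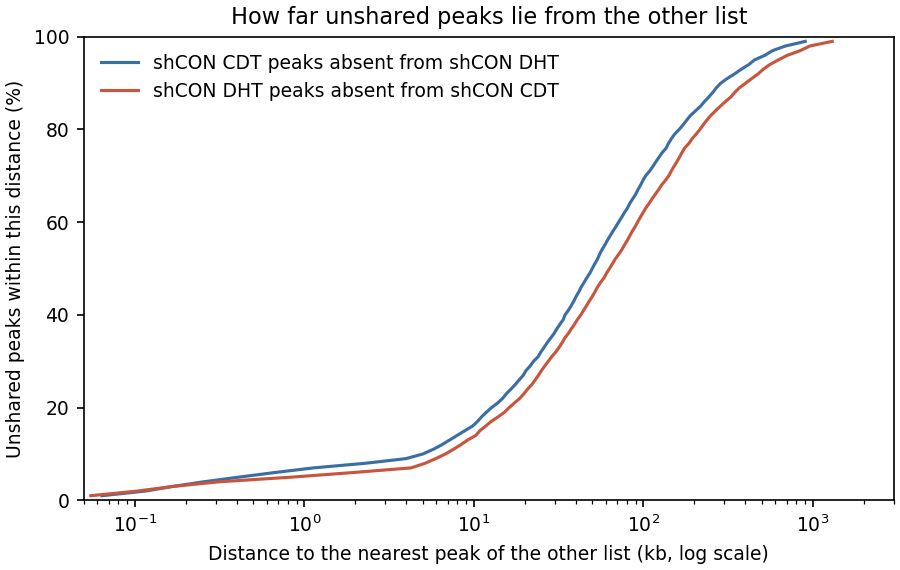
Cumulative share of unshared peaks (vertical axis, %) by distance to the nearest peak of the other control list (horizontal axis, kb on a log scale). From a few kb upward the DHT line lies to the right of the CDT line, with medians of 63.2 and 49.96 kb.

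The most remote unshared sites at the score cap were named by the same kind of rule. Of unshared DHT peaks at the cap, the 2 farthest from CDT were both on chromosome 5, chr5:93953761-93954862 (665 kb) and chr5:93446915-93447595 (489 kb). The next were at chr13:99229092-99229854 (433 kb), chr6:97730759-97731308 (358 kb) and chr2:105953665-105954162 (299 kb). Only the chromosome 13 peak among these 5 was absent from the RB-depleted cells. Of unshared CDT peaks at the cap, the farthest from DHT was at chr14:19819471-19819882, at 710 kb. It was followed by chr7:153757822-153758245 (647 kb), chr8:47528590-47529550 (643 kb), chr5:107007076-107008542 (589 kb) and chr1:219346983-219347715 (572 kb). The chromosome 5 peak alone among these was absent from the RB-depleted cells.

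Chromosomes differed in how evenly sites were found in either condition alone. Over the genome as deposited the unshared share was 2.02 percentage points higher in DHT than in CDT, an order that turned with lists of one length, and it was the higher one on 14 of 24 chromosomes. On chromosomes 4, 5, 13 and X the DHT interval lay wholly above the CDT interval. Chromosome X had 119 of 295 DHT peaks unshared (40.3%, 34.7 to 46.2) and 61 of 229 CDT peaks (26.6%, 21.03 to 32.9). Chromosome 13 had 40.9% (34.6 to 47.5) and 27.0% (20.8 to 34.03), chromosome 4 had 39.1% (35.1 to 43.3) and 29.0% (24.9 to 33.4), and chromosome 5 had 42.0% (38.3 to 45.8) and 33.6% (29.7 to 37.6). On no chromosome did the CDT interval lie wholly above that of DHT. With both lists cut to one length the intervals overlapped on all 4, X had 36.8% against 26.6%, and the DHT share was the higher one on 7 chromosomes. In the top 50% of both lists by score the intervals still lay apart on chromosome X, at 43.7% (35.8 to 51.8) and 24.1% (16.5 to 33.1), and overlapped on chromosomes 4, 5 and 13. There they also lay apart on chromosome 16, at 31.6% (26.4 to 37.1) and 19.4% (14.7 to 24.7), where they had overlapped as deposited. With a 50% reciprocal overlap they stayed apart on chromosomes 4, 5, 13 and X. They overlapped on chromosome 5 with peaks within 500 bp counted as shared, and on chromosome 13 with peaks reset to 500 bp. The reset also set them apart on chromosome 6. With peaks under 500 bp apart joined, they overlapped on both chromosomes 5 and 13.

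The CDT shares on chromosomes X, 13 and 4 were also lower than the scores of their peaks would give. These chromosomes also held more DHT than CDT peaks, 295 and 229 on X, 237 and 185 on 13, and 557 and 455 on 4. Chromosome 5 held 686 and 578, and the whole lists 12896 and 12096. A share reckoned from scores takes no account of how many peaks the other list has there. The part of peak number in these shares was not tested. If each score band had been unshared at its genome-wide rate, 33.7% of chromosome X CDT peaks would have been unshared, against the 26.6% found. The same reckoning gave 36.4% for chromosome 13 and 33.9% for chromosome 4, against 27.0% and 29.0% found, so that all 3 values lay above the intervals of the shares found. On chromosome 5 the reckoned share, 33.5%, was close to the 33.6% found. For DHT the reckoned shares were 37.01% on chromosome X, 41.3% on chromosome 13 and 38.8% on chromosome 4, all inside the intervals of the shares found. Chromosome 18 had the largest unshared share in DHT, 48.9% (42.9 to 55.0), where its scores gave 41.7%, and it also had a high share in CDT (41.4%).

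**Figure D5:**
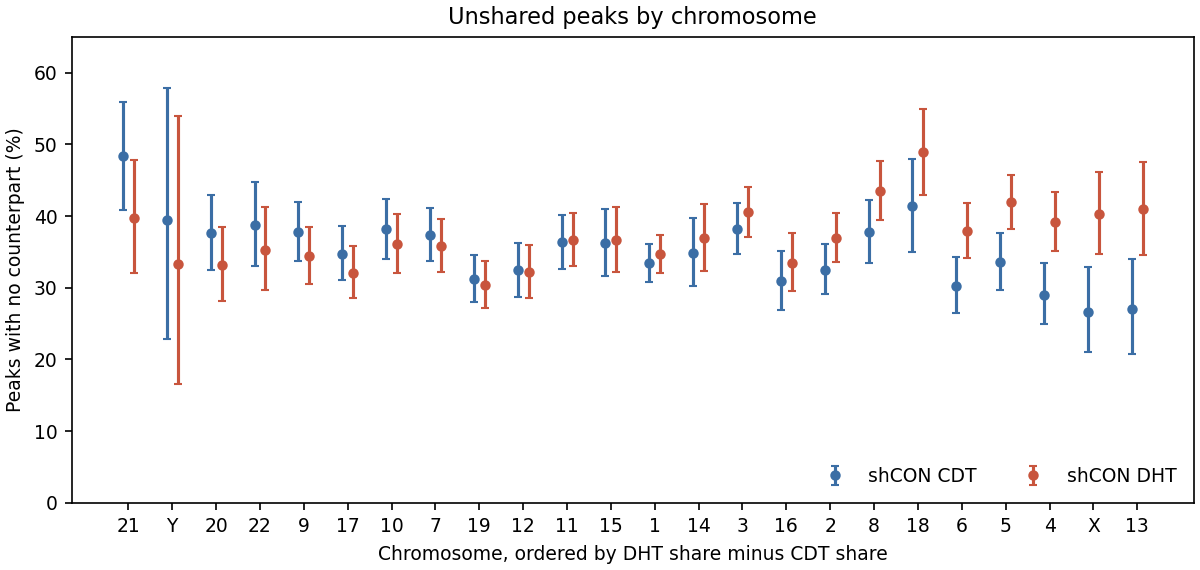
Share of peaks with no counterpart in the other control list (vertical axis, %) for each chromosome, ordered by the DHT share minus the CDT share. Points are shares of each pooled list and bars are exact 95% binomial intervals; the bars do not overlap on chromosomes 5, 4, X and 13 at the right, and the CDT point is the higher one on chromosome 21 at the left.

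Chromosome 21 stood at the other end, with 48.3% of CDT peaks unshared (40.8 to 55.9) against 39.7% of DHT peaks (32.01 to 47.9). Much of this lay in 1 stretch, chr21:9000001-12000000, which held 34 CDT peaks, 26 of them unshared, and 15 DHT peaks, 7 of them unshared. Without that stretch, a setting chosen after the data were examined, the shares were 41.7% (33.5 to 50.2) and 39.0% (30.9 to 47.6).

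Sites listed in 1 condition only were scattered over the genome in both directions. Of 2596 windows of 1 Mb with a peak in either list, 1378 held unshared peaks of both lists, 609 of DHT alone, 401 of CDT alone and 208 of neither. The fullest window for DHT was at chr8:144000001-145000000, where 17 of 29 DHT peaks had no CDT counterpart and 4 of 15 CDT peaks had no DHT counterpart. It was followed by chr19:45000001-46000000 with 12 of 19 DHT peaks unshared, chr17:79000001-80000000 with 11 of 23, chr11:65000001-66000000 with 11 of 27, and chr12:6000001-7000000 with 10 of 21. For CDT the fullest were chr19:1-1000000 with 14 of 22 CDT peaks unshared, chr7:158000001-159000000 with 13 of 18, chr21:10000001-11000000 with 11 of 11, chr11:1000001-2000000 with 11 of 15, and chr22:46000001-47000000 with 11 of 20. None of the unshared CDT peaks in the first pair of these was in the RB-depleted cells, whereas 9 of the 17 in the fullest DHT window were. In the other DHT windows named, in order, these were 3 of 12, 6 of 11, 6 of 11 and 4 of 10. In the other CDT windows they were 2, 3 and 3 of 11. Over the whole lists the order was the reverse, with 30.3% of unshared DHT peaks and 36.9% of unshared CDT peaks present there. Windows were picked for their counts, and those rich in peaks have more to count. With windows shifted by 0.5 Mb the fullest held 11 unshared DHT peaks, at both chr19:44500001-45500000 and chr8:144500001-145500000, and 17 unshared CDT peaks, at both chr21:10500001-11500000 and chr19:500001-1500000.

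Followed along the chromosomes, sites of 1 condition came more often in strings with DHT. Of the 4728 sites listed with DHT only, 1380 (29.2%) stood in 383 runs of 3 or more without any CDT peak between them. Of the 4190 sites listed with CDT only, 985 (23.5%) stood in 279 such runs. The longest runs held 9 sites in each condition. The DHT run lay at chr3:46036868-47018616, with scores from 441 to 643, and 4 of its 9 sites were in the RB-depleted cells. The CDT run lay at chr2:945737-2449285, with scores from 425 to 669, and 1 of its 9 sites was in the RB-depleted cells. The next longest DHT runs held 8 sites each, at chr18:76771234-77378105 and at chr15:46437965-48343577. The former had 1 site at the score cap and 3 in the RB-depleted cells, the latter none of either. Of all unshared peaks, 30.3% in DHT and 36.9% in CDT were in the RB-depleted cells. DHT-only sites are also the more numerous, which by itself makes runs longer, and the part of number was not tested. Unshared peaks close together counted as separate sites here. Neighbouring pairs under 500 bp apart numbered 1109 in the whole DHT list and 678 in the CDT list. Runs were not counted again with such peaks joined.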

How the data were processed

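ATAC-seq peak lists of control-hairpin LNCaP cells without (shCON CDT) and with DHT (shCON DHT) were compared, each pooling 2 libraries. Per the labels, the authors filtered the deposited lists at an irreproducible discovery rate of 0.1, merged and scored them; no label explains the list name's ppr. Positions are on hg19, per the submitters' processing notes, and counted from 1. The aligner, the peak caller and any read shift are not stated in the labels. The deposited score served only for rank within its own list. Sequencing depth is unknown.

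Overlaps (at least 1 bp), distances, widths and runs were computed with numpy 2.4.6, scipy 1.17.1 and pandas 2.3.3 under Python 3.11.15, with code tested on simulated lists. Named sites were the 10 highest-scoring unshared peaks per list (ties by width), the 5 most narrowed and 5 most widened sites at the cap in both lists, the 5 fullest windows of 1 Mb (ties by unshared share) and the 5 most remote unshared cap peaks. Runs and chromosome shares reckoned from score bands were added after the data were examined, and members and lists were chosen with earlier results of these data known. Planned gene, promoter and motif comparisons were not run, since the reference tables at hand are of GRCh38.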

Additional observations from a re-analysis of the deposited data

How the results depend on the processing

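Of 148 values recomputed under other settings, 86 stayed inside their counting interval or, for counts, within 1.5 times, and 62 moved. Autosomes only moved none. Values are given DHT first, then CDT. With a 50% reciprocal overlap, 53.7% and 57.2% of peaks were shared, the width ratio was 0.907, distances were 37.4 and 32.6 kb, 84.4% and 83.1% of the lowest score band were unshared, 21.8% and 34.0% of unshared peaks were in shRB CDT, and by construction 0 peaks met 2 or more. With peaks within 500 bp counted as shared, 64.99% and 67.3% were shared, distances were 68.9 and 54.9 kb, 466 and 697 peaks met 2 or more, and 74.2% of the lowest CDT score band was unshared. In the top 50% of both lists by score, where a counterpart below the threshold does not count, 71.3% and 74.4% were shared, 1855 and 1546 unshared, distances 86.0 and 78.6 kb, 52 and 150 peaks met 2 or more, 79.03% and 82.9% of unshared peaks were in shRB CDT, 60.6% and 49.8% of the lowest score band were unshared, and the fullest CDT window held 7. With lists cut to one length, 66.3% and 64.3% were shared, so the order turned; the DHT distance was 59.5 kb, 33.02% of unshared DHT peaks were in shRB CDT, 71.5% of the lowest DHT score band was unshared, and DHT had the larger unshared share on 7 chromosomes. With peaks reset to 500 bp, 60.8% and 63.9% were shared, distances were 55.4 and 46.6 kb, 121 and 239 peaks met 2 or more, and 28.9% and 35.2% of unshared peaks were in shRB CDT. With peaks under 500 bp apart joined, chosen after the data were examined, 65.1% and 67.2% were shared, the CDT distance was 54.02 kb, and 2 and 10 peaks met 2 or more. At the cap, 97.2% and 95.4% were shared, leaving 96 and 179. The fullest window held 11 DHT peaks when shifted by 0.5 Mb, and 8 and 8 at 250 kb. The cause was not tested where construction does not give it. No paired analysis was possible because the replicates of a group stand pooled in 1 list, and none could be left out.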

Other observations

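Peaks in these lists seldom lay between 1 and 4 kb apart. Within shCON DHT, 1148 neighbouring pairs were under 1 kb apart and 268 were 5 to 8 kb apart, but only 91 were 1 to 4 kb apart. Within shCON CDT these numbers were 736, 275 and 117, and within shRB CDT 809, 459 and 160. The same thin stretch was seen from unshared peaks to the other list: 78 unshared DHT peaks and 95 unshared CDT peaks were 1 to 4 kb from it, against 182 and 170 at 5 to 8 kb. Unshared peaks thus fell into a small set directly beside a peak of the other condition and a large set well away from one. The labels do not say how the authors merged peaks.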
